A study of Mus musculus with 4 samples.

Results

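Pax9, Pax1, Alx1 and Alx4 encode transcription factors of the anterior limb bud, and the accessible regions around them were described in the posterior forelimb bud with and without Sonic hedgehog (SHH). The assay was ATAC-seq, which tags accessible DNA with a transposase before sequencing, and each library was deposited as 1 list of peaks. The regions were chosen by the peak calls themselves: every peak that overlapped the body of 1 of these genes, or the 100 kb on either side of it, was taken from each of the 4 lists, and peaks sharing at least 1 bp were joined into a region. This gave 33 regions of 44692 in all, made of 50 peaks. Of the 33 regions, 7 lay around Pax9, 4 around Pax1, 1 around Alx1 and 21 around Alx4. The 100 kb after Pax9 take in part of the introns of Slc25a21, a mitochondrial carrier gene, and the window of Alx4 takes in part of its neighbour Ext2, which encodes an enzyme of heparan sulfate synthesis. Because the genes were picked with results of these same lists known, calls are given as descriptions, with no test.

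The 4 libraries came from embryos of a Swiss Webster background at E10.5 (embryonic day, 35 somites), 2 of them wild type (WT) and 2 Shh-/-, which carry no functional copy of the SHH ligand. Each library held 5000 cells from the posterior forelimb buds of a single embryo and was amplified with 18 cycles of PCR, so a genotype is represented by 2 embryos. No anterior library was analysed here, so the anterior label of the 4 genes comes from background knowledge. A posterior piece of a bud is a mixture of cells, and more cells with an open site cannot be told apart from a site that is more open in each cell.

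SHH is made at the posterior margin of the limb bud. Where it is received, GLI proteins activate their targets, and where it is missing, as in the anterior bud, GLI3 is cut into a repressor. In a Shh-/- bud the repressor form is therefore present in posterior cells too. Pax9 and Pax1 are closely related paired box genes. Pax9 is expressed in the anterior limb mesenchyme, and mice without it have extra anterior digit structures and lack teeth and a thymus. Pax1 acts in the sclerotome and the shoulder girdle. Alx1 and Alx4 have a paired-type homeobox. Loss of Alx4 gives extra anterior digits with SHH made at the anterior margin, and Alx1 is needed for the head mesenchyme and closure of the cranial neural tube. The comparison of WT and Shh-/- buds asks whether chromatin accessibility moves with Hedgehog signaling.

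The lists differed widely in size: the WT replicates 1 and 2 held 39080 and 11973 peaks and the Shh-/- replicates 1 and 2 held 5589 and 18459. A site without a peak is not shown to be closed, and the depth of the libraries is unknown from lists. Scores, which are comparable only within a list, are therefore followed by the share of the library's own list that had the same or a higher score, so that a small share is a well placed peak. Of 4 limb mesenchyme genes (Prrx1, Prrx2, Msx1, Twist1), the 4 lists in the order above held a promoter peak for 4, 3, 2 and 3. Of 4 posterior genes (Shh, Hand2, Hoxd13, Tbx3) they held one for 3, 1, 1 and 1. A promoter peak at Tbx5, the defining gene of the forelimb, was called only in WT replicate 1. Of the ectoderm and endothelium markers, 4 each, WT replicate 1 and Shh-/- replicate 2 held a promoter peak for 1 of each set, and the other lists for 0. In the same order of lists, promoter peaks were held for 2, 0, 0 and 1 of 2 hindlimb genes (Tbx4, Pitx1), for 2, 1, 0 and 2 of 2 muscle progenitor genes (Pax3, Lbx1) and for 1, 0, 0 and 0 of 4 blood genes. These counts were highest in the largest list, and their part in the calls below was not tested.

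The 4 distal regions that both Shh-/- lists shared carry most of what follows, and the 300 bp around the summit of their best placed peak are printed here from the RefSeq copy of GRCm38.p6 (mm10), plus strand. Capitals mark TAAT or its reverse complement ATTA, the core that homeodomain proteins such as ALX1 and ALX4 bind. This core was searched after the calls had been seen.
Slc25a21 intron, 23.1 kb after the Pax9 start site, chr12:56718572-56718871: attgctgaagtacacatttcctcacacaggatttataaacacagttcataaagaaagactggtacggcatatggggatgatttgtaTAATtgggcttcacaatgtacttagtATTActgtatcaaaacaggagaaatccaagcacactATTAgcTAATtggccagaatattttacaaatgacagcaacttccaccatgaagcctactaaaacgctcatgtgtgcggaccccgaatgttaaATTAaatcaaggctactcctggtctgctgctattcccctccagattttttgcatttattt
Pax1 downstream, 36.3 kb past the gene, chr2:147429756-147430055: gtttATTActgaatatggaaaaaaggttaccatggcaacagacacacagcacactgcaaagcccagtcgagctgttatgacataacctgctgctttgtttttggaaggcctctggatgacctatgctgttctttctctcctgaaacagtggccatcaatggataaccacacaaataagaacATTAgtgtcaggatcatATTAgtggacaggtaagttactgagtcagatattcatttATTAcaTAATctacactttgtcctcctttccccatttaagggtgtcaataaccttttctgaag
Alx4 upstream, 17.3 kb before the start site, chr2:93624931-93625230: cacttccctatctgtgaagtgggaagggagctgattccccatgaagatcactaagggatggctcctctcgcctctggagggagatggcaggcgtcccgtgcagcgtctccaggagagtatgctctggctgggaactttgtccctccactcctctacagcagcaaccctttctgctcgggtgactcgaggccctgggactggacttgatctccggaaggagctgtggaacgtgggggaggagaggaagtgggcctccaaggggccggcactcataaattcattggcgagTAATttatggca
Ext2 intron, 64.5 kb past Alx4, chr2:93746156-93746455: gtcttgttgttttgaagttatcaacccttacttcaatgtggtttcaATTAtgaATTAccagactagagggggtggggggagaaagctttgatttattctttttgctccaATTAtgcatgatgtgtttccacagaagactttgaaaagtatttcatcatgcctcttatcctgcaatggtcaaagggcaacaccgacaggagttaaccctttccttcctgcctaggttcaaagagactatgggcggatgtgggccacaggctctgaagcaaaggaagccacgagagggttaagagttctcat
The Slc25a21 and Pax1 downstream windows held 5 cores each, the Ext2 window 3 and the Alx4 upstream window 1. Their GC content was 38.3%, 40.0%, 43.7% and 57.7% in the order Slc25a21, Pax1, Ext2 and Alx4. At least 1 core was present in 59% of all distal regions, where the median was 1 core. The median was 5 cores in the 165 distal Shh-specific regions of the genome. It was also 5 in the 467 distal regions with a GC content under 45% that both Shh-/- lists called, Shh-specific or not. The number at Slc25a21 was thus the usual one for regions of its kind.

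Another pair of regions, neither of them called in Shh-/- replicate 1, is printed because each holds a match to the GLI consensus TGGGTGGTC (both strands were searched, and 1 mismatch was allowed). Capitals mark the match, on the plus strand in both.
Pax9 upstream, 10.2 kb before the first start site, chr12:56681410-56681709: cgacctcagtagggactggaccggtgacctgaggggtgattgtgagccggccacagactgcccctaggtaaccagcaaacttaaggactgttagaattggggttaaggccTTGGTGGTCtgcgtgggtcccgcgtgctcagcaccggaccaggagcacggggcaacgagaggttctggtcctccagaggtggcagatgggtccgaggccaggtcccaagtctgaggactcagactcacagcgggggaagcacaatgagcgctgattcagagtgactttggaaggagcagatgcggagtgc
Ext2 intron beside the region above, chr2:93744874-93745173: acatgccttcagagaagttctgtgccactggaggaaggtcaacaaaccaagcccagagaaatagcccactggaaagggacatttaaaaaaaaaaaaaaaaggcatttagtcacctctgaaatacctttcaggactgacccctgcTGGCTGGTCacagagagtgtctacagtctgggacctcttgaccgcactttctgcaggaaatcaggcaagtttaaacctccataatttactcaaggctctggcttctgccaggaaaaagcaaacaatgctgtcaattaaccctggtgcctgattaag

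Around Pax9, 2 regions were called in both Shh-/- lists and in neither WT list, one of 343 bp at a start site of the gene, with WT peaks close beside it, and one in an intron of Slc25a21. Pax9 lies on chromosome 12 from 56691767 to 56712822 (mm10, plus strand, GENCODE M21), and its 7 regions held 3 peaks of WT replicate 1, 1 of WT replicate 2, 2 of Shh-/- replicate 1 and 6 of Shh-/- replicate 2. The smallest list, Shh-/- replicate 1, called just these 2 Pax9 regions and no other.

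The region in the Slc25a21 intron lay at 56718483 to 56718968, 5.66 kb past the end of Pax9. Its score in Shh-/- replicate 1 was 51, with 71.3% of that list at or above it. In Shh-/- replicate 2 the score was 230, with 19.4% of that list at or above it. WT replicate 1 and WT replicate 2 had no peak there, and their nearest peaks were 20698 bp and 21472 bp away. The same piece of DNA was picked in both mutant libraries: the shorter peak lay wholly inside the longer one and the summits were 24 bp apart. In Shh-/- replicate 2 it was the best placed of all 20 peaks around the 4 genes (rank 3380). In Shh-/- replicate 1 it stood in the lower part of the list (rank 3521 of 5589).

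The Pax9 start-site region, 56695562 to 56695904, covered the transcription start site (TSS) at 56695639 and part of the first exon of that transcript. Its score was 60 in Shh-/- replicate 1 (63.0% of the list at or above it) and 38 in Shh-/- replicate 2 (83.0%). Neither WT list had a peak in it, but both had one close by, 1026 bp away in WT replicate 1 and 732 bp away in WT replicate 2. Those WT peaks belong to the next region, 56696637 to 56697784, in an exon of Pax9, which was also called in Shh-/- replicate 2 and not in Shh-/- replicate 1. There the score was 45 in WT replicate 1 (50.6% of the list), 26 in WT replicate 2 (85.7%) and 115 in Shh-/- replicate 2 (39.4%). The 5′ end of Pax9 thus had a peak in every library, and the lists differed in where within a short stretch it was placed. With peaks up to 1000 bp apart joined, an alternative added after seeing the data, both regions became 1 that all 4 libraries shared.

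The other Pax9 regions were each found in 1 or 2 libraries. The upstream region with the GLI match printed above, 56681108 to 56681714, was called in WT replicate 1 (score 53, 43.9% of the list) and in Shh-/- replicate 2 (score 78, 52.7%), with summits 309 bp apart. Shh-/- replicate 2 alone had a region 54.7 kb before the first TSS (score 87, 48.7%) and a weak one in a Pax9 exon 4.56 kb after the second TSS (score 31, 91.4%). WT replicate 1 alone had a second Slc25a21 intron region, 109 kb after that TSS (score 53, 43.9%). No region overlapped the promoter window of the first TSS, at 56691767. The plot of the Pax9 window shows these calls by library.

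**Figure D1:**
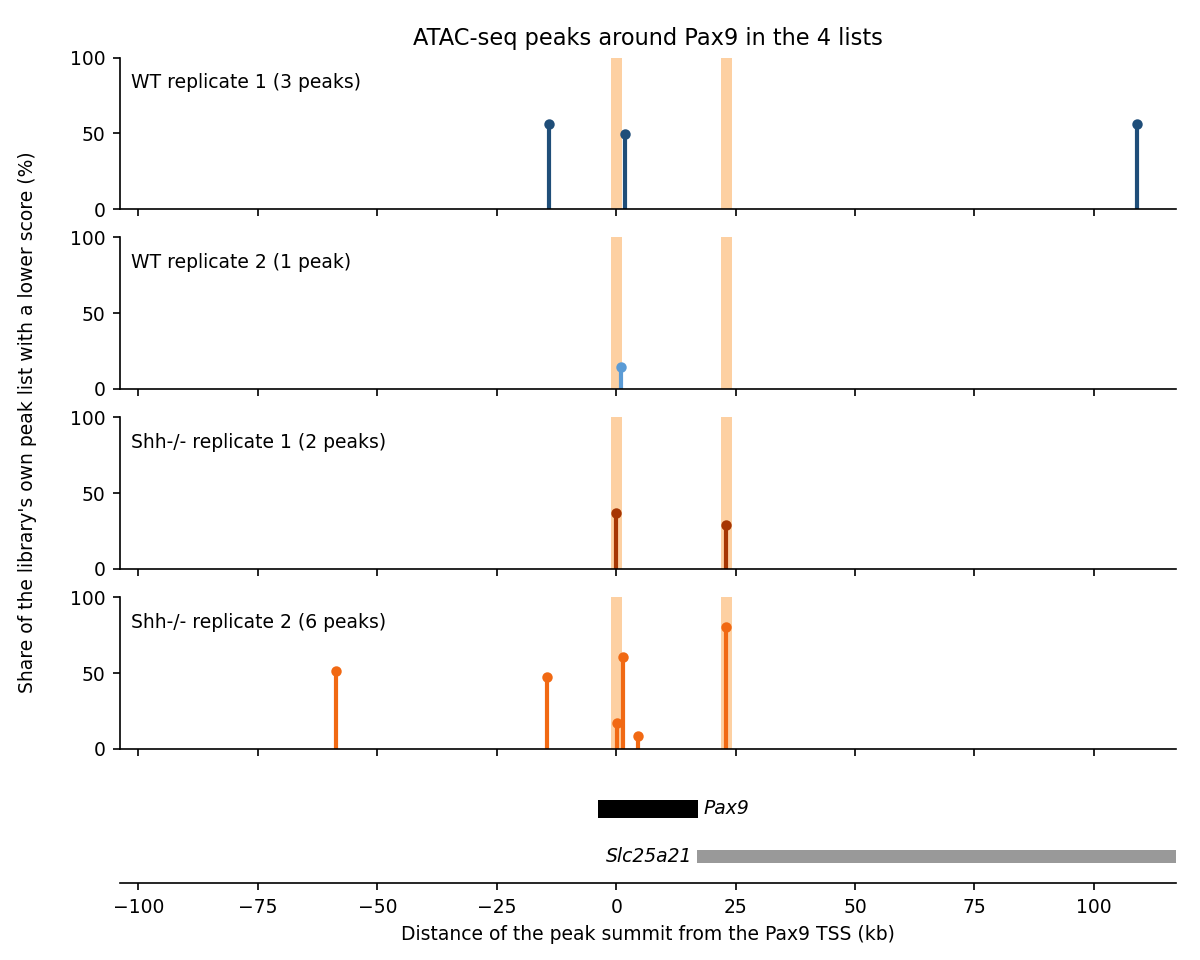
Peaks in the Pax9 window in the 4 libraries. The x axis is the distance of the peak summit from the Pax9 TSS at 0 kb, the height is the share of the library's own list with a lower score (%), shaded bands are Shh-specific regions widened by 1 kb on each side, and bars at the bottom are the Pax9 and Slc25a21 genes inside the window. The band 23.1 kb after the TSS holds a peak in both Shh-/- libraries and in neither WT library, and near 0 kb every library has a peak.

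Around Pax1 the strongest region lay well past the gene and was open in both Shh-/- libraries and in WT replicate 1. Pax1 lies on chromosome 2 from 147361925 to 147393295 (plus strand), and its 4 regions held 4 peaks of WT replicate 1, 0 of WT replicate 2, 1 of Shh-/- replicate 1 and 2 of Shh-/- replicate 2. The intergenic region at 147429634 to 147430288, whose sequence is printed above, had a score of 84 in WT replicate 1 (29.9% of the list), 131 in Shh-/- replicate 1 (28.0%) and 219 in Shh-/- replicate 2 (20.6%). It was the best placed peak of the 4 genes in Shh-/- replicate 1 (rank 1419), and WT replicate 2, whose nearest peak was 251100 bp away, was the only list without it. The lists differ so much in length that these placements do not rank the libraries by accessibility.

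The annotation set used held 1 Pax1 transcript, with its TSS at 147364994, inside the gene body given above. The promoter of this transcript was called only in WT replicate 1, at 147365543 to 147365774 (score 25, 86.5% of the list). The same library alone called a Pax1 intron region 8.46 kb after the TSS (score 38, 60.1%). A region at the promoter of the neighbouring transcript AI646519, 147362089 to 147362470, was called in WT replicate 1 (score 45, 50.6%) and, near the end of the list, in Shh-/- replicate 2 (score 24, 98.1%). It also lay near the 5′ end of the annotated Pax1 body, which no Pax1 TSS in that set marks. Shh-/- replicate 1 thus had the distal region without any peak at the gene.

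Alx1, on chromosome 10 from 102998707 to 103030215 (minus strand), had 1 region in its window of 232 kb. This was its promoter, 103027966 to 103028880, called in 1 library of each genotype. The score was 84 in WT replicate 1 (29.9% of the list) and 165 in Shh-/- replicate 2 (28.4%), and the summits lay 25 bp apart. WT replicate 2 and Shh-/- replicate 1, the smaller list of each genotype, had no peak anywhere in the window. The nearest region outside the window was 337 kb from the gene, at the promoter of Slc6a15.

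Alx4 had the most regions, 21, of which 1 was Shh-specific. The gene lies on chromosome 2 from 93642384 to 93681339 (plus strand), and its window held 13 peaks of WT replicate 1, 3 of WT replicate 2, 2 of Shh-/- replicate 1 and 11 of Shh-/- replicate 2. Of the 21 regions, 15 were called in a single library, 4 in 2 libraries and 2 in 3 libraries, and 0 in all 4. The single-library share, 71.4%, stands beside 64.2% over all regions.

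The Shh-specific region, 93745815 to 93746604, lay in an intron of Ext2, 64.5 kb past the end of Alx4. In Shh-/- replicate 2 its score was 208 (21.9% of the list), and in Shh-/- replicate 1 its score was 26, near the bottom of that list (97.9%). The peaks of the 2 libraries overlapped by 78 bp, which was 34.1% of the shorter one, and their summits were 276 bp apart. A WT replicate 1 peak with a score of 20 (97.0%) ended 157 bp before the region. Shh-/- replicate 2 had a further peak (score 78, 52.7%) on the other side of that WT peak, 217 bp from it, with the GLI match printed above 2 bp from its summit. The Ext2 intron therefore held peaks of 3 libraries side by side, and with an overlap of 50% of the shorter peak required it was no longer Shh-specific. The Slc25a21 region, in contrast, had no WT peak within 20 kb and summits that nearly coincided.

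The region 17.3 kb before the Alx4 TSS, 93624779 to 93625483, was called in WT replicate 1 with a score of 139 (20.5% of the list), in Shh-/- replicate 1 with 60 (63.0%) and in Shh-/- replicate 2 with 186 (24.8%). It was the best placed of the 21 peaks of WT replicate 1 around the 4 genes (rank 7550). WT replicate 2 had no peak there, and its nearest one was 8087 bp away, in the region 26.2 kb before the TSS (93616066 to 93616691). That region was called in both WT libraries, at 50.6% of the list in WT replicate 1 and 85.7% in WT replicate 2, and at 61.7% in Shh-/- replicate 2, but not in Shh-/- replicate 1. Each of these upstream regions was thus missing from just 1 list, a WT list for the one and a Shh-/- list for the other.

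At the Alx4 promoter, the region 93642677 to 93643259 was called in WT replicate 1 (score 45, 50.6%) and Shh-/- replicate 2 (score 78, 52.7%), and a weaker one, 93641906 to 93642175, only in WT replicate 1 (score 20, 97.0%). An Ext2 intron region 130 kb after the TSS was well placed in WT replicate 1 (score 102, 25.9%) and poorly in Shh-/- replicate 2 (score 31, 91.4%). Inside Alx4 the WT libraries had neighbouring peaks, in WT replicate 1 at 93671902 to 93672126 and in WT replicate 2 at 93672151 to 93672382, which lay 24 bp apart and were counted as 2 regions. The WT replicate 1 peak had the lowest score of its list, 14, while the one in WT replicate 2 was the best placed of its 4 peaks around these genes (score 49, 53.9%). The Shh-/- peak nearest to the WT replicate 1 peak was 24083 bp away.

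**Figure D2:**
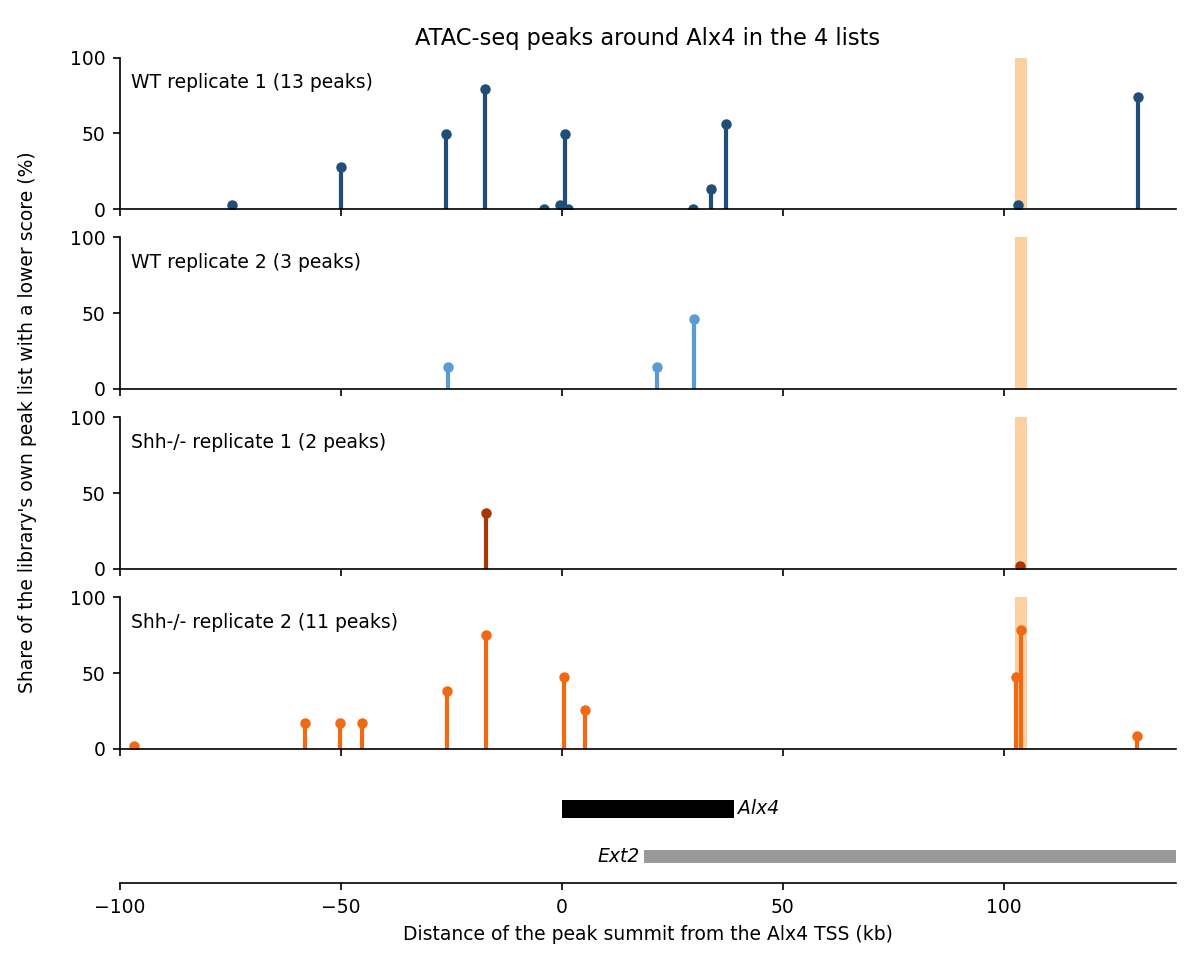
Peaks in the Alx4 window in the 4 libraries. The x axis is the distance of the peak summit from the Alx4 TSS at 0 kb, the height is the share of the library's own list with a lower score (%), the shaded band is the Shh-specific region widened by 1 kb on each side, and bars at the bottom are the Alx4 gene and the part of Ext2 inside the window. WT replicate 1 and Shh-/- replicate 2 carry 13 and 11 of the peaks, and the band holds a very poorly placed peak of Shh-/- replicate 1.

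Taking the 4 genes as a group, 3 of the 33 regions (9.09%) were Shh-specific, called in both Shh-/- libraries and no WT library, against 0.396% of all regions. None was WT-specific, called in both WT and no Shh-/- library, against 2.09% of all regions, and 0 were called in all 4 libraries, against 7.97%. These shares were part of how the genes came to be chosen, and nothing is read from them. Of the 33 regions, 11 (33.3%) were found only in WT replicate 1, against 51.6% of all regions, 7 (21.2%) only in Shh-/- replicate 2, against 7.33%, and 6 (18.2%) in exactly these 2 libraries, against 11.03%. A further 2 were found only in WT replicate 2 and 0 only in Shh-/- replicate 1. The 5 regions called in both Shh-/- libraries included all 5 peaks of Shh-/- replicate 1. Over all regions, 87.3% of the 5445 called in Shh-/- replicate 1 were also called in Shh-/- replicate 2.

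Of these 5 regions the 3 Shh-specific ones compare with 3.72% Shh-specific among all 4756 regions that both Shh-/- lists shared. The share was 12.1% among the 1365 distal ones and 0.354% among the 3391 promoter ones. The Pax9 start-site region, which had WT peaks close beside it, was 1 of the 12 Shh-specific promoter regions. The share was higher at low GC content: 25.9% of the 467 distal regions with a GC content under 45% were Shh-specific, against 4.90% of the 898 with 45% or more. The Slc25a21 and Ext2 windows were both under 45%, as was the Pax1 downstream window that WT replicate 1 also called. The lists differed in this respect as a whole. For the distal regions called, the median GC content was 49.0% in Shh-/- replicate 1 and 51.7% in Shh-/- replicate 2. It was 53.3% in WT replicate 1 and 54.0% in WT replicate 2. GC content was taken in the 300 bp around a region's best placed summit in any library. The part of base composition in the calls at these genes was not tested.

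Good placement in Shh-/- replicate 2 went with fewer specific calls. Of the 397 distal regions shared by both Shh-/- lists and in the top 25% of Shh-/- replicate 2, WT replicate 1 also called 97.7%, and 8 (2.02%) were Shh-specific. The Slc25a21 and Ext2 regions were among those 8. The top 25% was set after these values had been seen, so nothing is read from their being among the 8. Ordered by the poorer of the 2 placements, the Slc25a21 region came 61st of the 177 Shh-specific regions, the Pax9 start-site region 105th and the Ext2 region 150th.

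**Figure D3:**
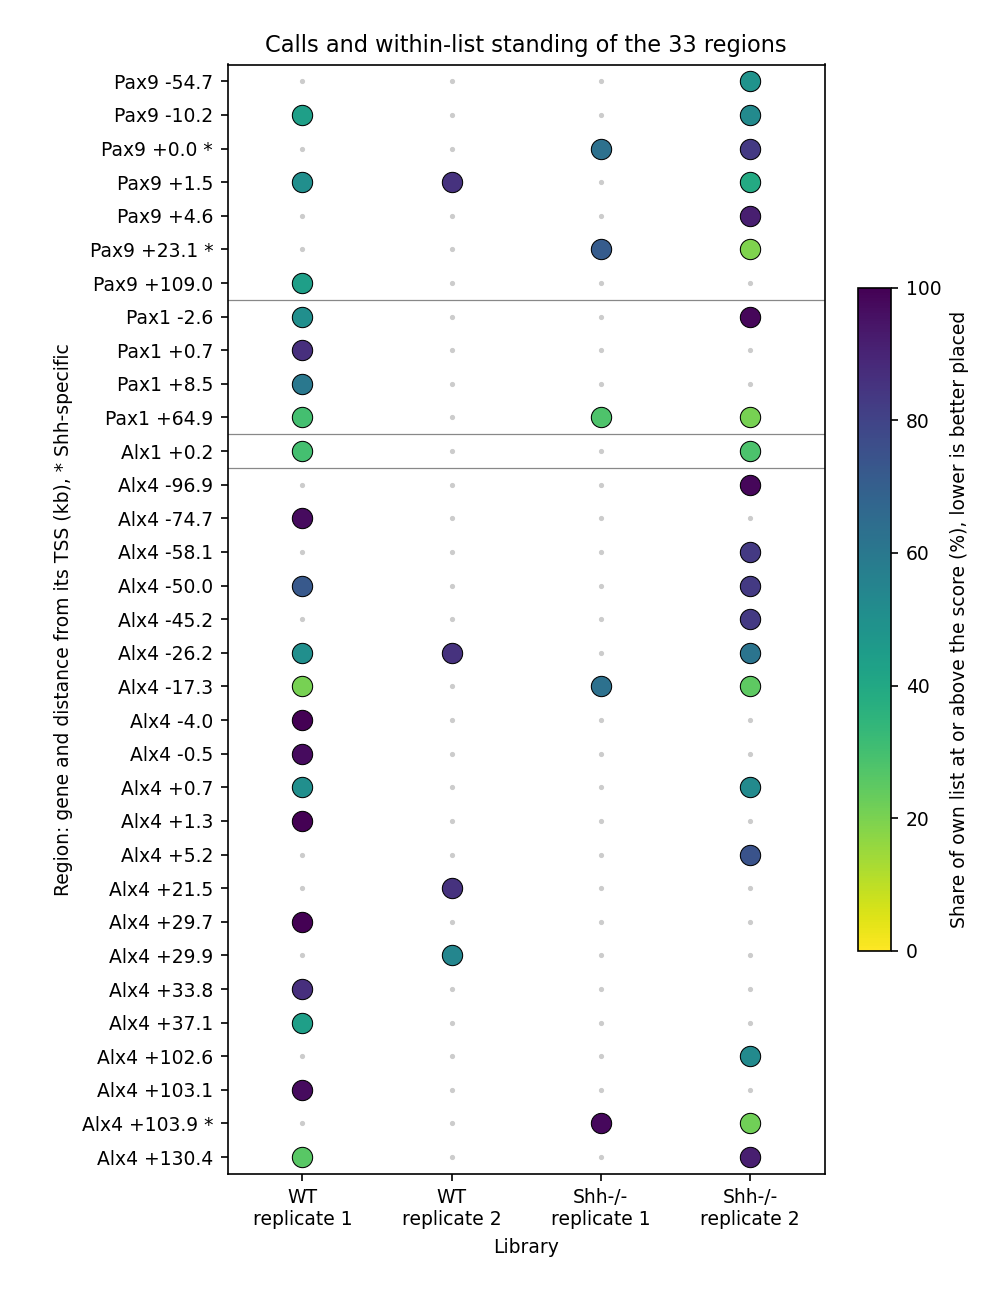
The 33 regions (rows, by gene and distance of the best summit from the nearest TSS of that gene in kb) in the 4 libraries (columns). A filled point is a call, coloured by the share of the library's own list at or above its score (%), a grey dot is no call, and an asterisk marks the 3 Shh-specific regions. WT replicate 1 and Shh-/- replicate 2 hold 21 and 20 of the 50 peaks, and no row is filled in all 4 columns.

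Relative to list size, the 4 genes together had 0.537 and 0.334 peaks per 1000 list peaks in the WT replicates 1 and 2, and 0.895 and 1.08 in the Shh-/- replicates 1 and 2. Both Shh-/- values were above both WT values. For Pax9 the values in the same order were 0.0768, 0.0835, 0.358 and 0.325, the widest gap of the 4 genes. For Alx4 they were 0.333, 0.251, 0.358 and 0.596. The Alx4 ranges came close to touching, with WT replicate 1 just under Shh-/- replicate 1. For Pax1 the values were 0.102, 0, 0.179 and 0.108, where WT replicate 1 and Shh-/- replicate 2 were nearly equal, and for Alx1 the genotypes overlapped. A count of 1 to 13 peaks lies behind each value above 0 for a single gene, and 4 to 21 behind those of the group, so they are coarse. Among all 18831 protein-coding genes with a peak in such a window, both Shh-/- values lay above both WT values for 11.8%, and the reverse held for 14.3%. With 2 libraries against 2, an exact permutation test cannot give a p below 0.333.

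With each list limited to its 5589 best scores, the length of the smallest list, no WT peak was left around any of the 4 genes, and 5 peaks were left in each Shh-/- list. Pax9 then had 0, 0, 2 and 1 peaks, Pax1 0, 0, 1 and 1, Alx1 0, 0, 0 and 1, and Alx4 0, 0, 2 and 2, in the order WT replicates 1 and 2 and Shh-/- replicates 1 and 2. More peaks in both Shh-/- lists than in both WT lists were thus found for 3 of the 4 genes. The same held for 3.7% of the 15723 protein-coding genes with such a peak, and the reverse for 7.94% of them. The 4 genes were chosen with results of these lists known, so nothing is read from this share. These limited lists were not of one kind. In Shh-/- replicate 1 they held 2049 distal peaks, and in the other lists 580 (WT replicate 1), 528 (WT replicate 2) and 661 (Shh-/- replicate 2). Around the 4 genes, 4 distal peaks remained in each Shh-/- list. The part of distal content in these counts was not tested. The best WT replicate 2 peak, in the Alx4 intron, tied with the score at the limit, 49, and fell outside by its position in the list.

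**Figure D4:**
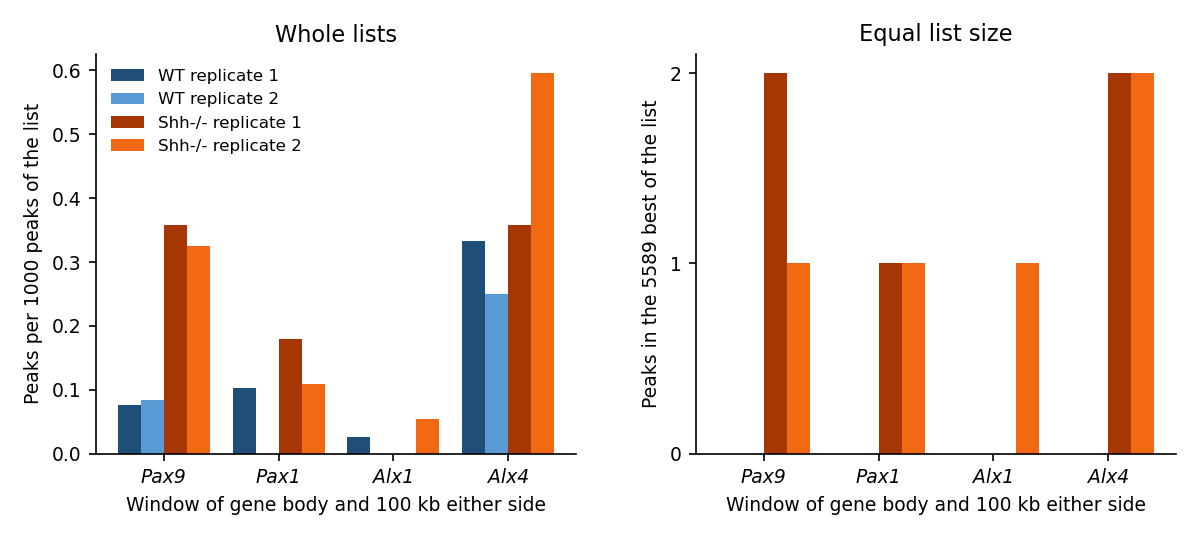
Peaks in the windows of the 4 genes by library. Bars on the left are peaks per 1000 peaks of the whole list, and bars on the right are peaks among the 5589 highest scores of each list; a missing bar is 0 peaks. On the left the Shh-/- bars stand above the WT bars for Pax9, Pax1 and Alx4, by a small margin for Pax1 and Alx4. On the right, where only the list of Shh-/- replicate 1 is whole, no WT bar is left.

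A GLI match was present in 5 of the 33 regions (15.2%), against 8.47% of all regions. The 5 regions hold 4 different sites, because the neighbouring peaks of the 2 WT libraries in the Alx4 intron share 1. The matches read TTGGTGGTC at the Pax9 upstream region, TGGGTGGTA in an Alx4 intron region called in Shh-/- replicate 2, GGGGTGGTC at the WT pair in the Alx4 intron and TGGCTGGTC in the Ext2 intron. None of the 5 regions that both Shh-/- libraries shared held a match in these 300 bp. A pair of facing TAAT cores 3 bp apart, the form that paired-type homeodomain dimers bind, was found in 0 of the 33 regions and in 0.253% of all regions.

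Shh-specific regions were rare over the genome (0.396% of all regions), and the gene lists compared next hold few regions. Around Gli3, Irx3, Irx5, Lhx9 and Msx1, 56 regions held 0 Shh-specific and 1 WT-specific region, in an Irx5 exon. Peaks per 1000 were higher in both Shh-/- lists for 3 of these 5 genes (Gli3, Irx3 and Lhx9) and higher in both WT lists for 0, beside the 11.8% and 14.3% of all genes given above. Their promoters were also more widely called than those of the 4 genes described here: Gli3, Irx3 and Irx5 had a promoter peak in all 4 libraries. Around 9 genes that are posterior or induced by SHH (Gli1, Ptch1, Hhip, Hand2, Hoxd12, Hoxd13, Tbx2, Tbx3 and Bmp2), 107 regions held 0 Shh-specific and 2 WT-specific regions, 1 in a Hoxd11 exon and 1 in a Tbx4 exon beside Tbx2. Peaks per 1000 were higher in both Shh-/- lists for 0 of the 9 and in both WT lists for 1, Tbx2. Around 9 related paired box or paired-type homeobox genes (Pax2, Pax3, Pax5, Pax6, Pax7, Pax8, Prrx1, Prrx2 and Pitx1), 140 regions held 0 Shh-specific and 2 WT-specific regions, both at Prrx2, and 4 of the 9 were higher in both Shh-/- lists against 2 in both WT lists. With so few regions, the counts of 0 do not separate these lists from the share over all regions, and nothing is read from the contrast with the 4 genes.

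By promoter calls alone the 4 genes were not alike. Pax9 had a promoter peak in WT replicate 2 and both Shh-/- lists, a pattern that 2 of 21951 protein-coding genes showed, Pax9 included. Its WT replicate 2 peak only just reached the promoter window, which runs from 2 kb before to 1 kb after a TSS. Genes near to Pax9 in promoter placement over the 4 libraries were Lypd9 and Dnase1l2, at distances of 22.2 and 22.7 percentage points. Neither shared its pattern. Lypd9 had a promoter peak only in Shh-/- replicate 1, and Dnase1l2 only in the Shh-/- lists. A missing call was counted as the poorest placement. A poorly placed peak, such as that of Pax9 in WT replicate 2 (85.7% of the list), therefore lies near a missing one. The Alx1 and Alx4 promoters were called in WT replicate 1 and Shh-/- replicate 2, as were those of 2583 genes. The promoter of the 1 Pax1 transcript used was called only in WT replicate 1, as for 1930 genes.

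The farthest region inside the Pax9 window was 91.7 kb from the gene and the nearest outside was 156 kb away, both called in WT replicate 1 alone. For Pax1 these distances were 36.3 kb, called in WT replicate 1 and both Shh-/- libraries, and 114 kb, called in WT replicate 1 alone. For Alx4 they were 96.9 kb, called in Shh-/- replicate 2, and 104 kb, called in WT replicate 1.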

How the data were processed

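ATAC-seq libraries of 2 WT and 2 Shh-/- posterior forelimb buds were used, grouped by the genotype and replicate number of their titles. The submitters' processing notes name Bowtie2 2.2.5, MACS2 2.1.0 and mm10 (GRCm38). The authors called peaks in each library separately, with 0.05 as the limit on the q-value and 200 bp as the window, and deposited 1 list per library. The score that the authors deposited with each peak (column 5) was used only to rank peaks within a list, with ties kept as equal ranks. Lists hold no read counts, so the limma fit of the study was not repeated.

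Peaks were merged and annotated with GENCODE M21 in Python 3.11.15 (numpy 2.4.6, pandas 2.3.3). The merging and motif steps were tested on simulated data. The lists limited to 5589 peaks broke ties by position. Named regions were those Shh-specific, WT-specific or in all 4 libraries, those at a member's promoter, and 2 others per gene by best placement. Others were named after their values were seen. Likeness was the Euclidean distance of promoter placements over the 4 libraries, with a missing call set to 100%. The genes, lists and rules were chosen with earlier results of these data known. Some genes of the comparison lists are not reported here, and the list counts leave them out.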

Additional observations from a re-analysis of the deposited data

How the results depend on the processing

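No paired analysis was possible because the results come from no test, and nothing in the labels ties a replicate number of one genotype to that of the other. The 33 regions became 15 with scores of at least 50, 7 with scores of at least 100, 6 at equal list size and 69 with windows of 200 kb, and leaving out 1 library gave 22 to 33. The 3 Shh-specific regions became 1 of 15 with scores of at least 50 (the Slc25a21 region), against 0.887% of all regions. With scores of at least 100, 1 of 7 was Shh-specific, against 0.671%. This was the Pax1 downstream region, whose WT replicate 1 peak was removed by that limit. With peaks up to 1000 bp apart joined, 1 of 27 was Shh-specific (the Slc25a21 region), against 0.442%. Windows of 50 kb gave 2 of 24 Shh-specific regions and windows of 200 kb gave 4 of 69, both against 0.396% of all regions. Leaving out 1 library gave 3 to 10 Shh-specific regions. The number was 5 of 22 (22.7%, against 5.38% of all regions) without WT replicate 1. It was 10 of 33 (30.3%, against 7.81%) without Shh-/- replicate 1. The 0 WT-specific regions became 3 of 69 with windows of 200 kb (2.09% of all regions) and 1 of 27 with peaks joined (2.66%). Leaving out 1 library gave 0 to 11 WT-specific regions. The count was 11 of 31 (35.5%, against 56.1% of all regions) without WT replicate 2. It was 2 of 22 (9.09%, against 13.7%) without WT replicate 1 and 2 of 26 (7.69%, against 14.3%) without Shh-/- replicate 2. The 0 regions called in all libraries became 1 of 69 with windows of 200 kb (7.97% of all regions). With peaks joined they became 1 of 27 (the 5′ end of Pax9), against 9.26%. Leaving out 1 library gave 0 to 2 such regions, with 2 without WT replicate 2 (10.7% of all regions) or Shh-/- replicate 1 (19.4%). At equal list size 4 of 6 regions were Shh-specific, against 304 of 9282 regions (3.28%) in all. These were the Slc25a21, Ext2, Pax1 downstream and Alx4 upstream regions. WT replicate 1 called the Pax1 and Alx4 ones in its full list, and the limit removed those peaks. The Pax9 start-site region was no longer Shh-specific, because its Shh-/- replicate 2 peak was removed. An overlap of at least 50% of the shorter peak removed the Ext2 region. The Slc25a21 region was Shh-specific in every setting except scores of at least 100, where its Shh-/- replicate 1 peak was removed. Most settings could not have changed this call, because no WT peak lay near it and the shorter Shh-/- peak lay inside the longer one. Only the limits on score and list size could have removed it. Joining peaks was added after seeing the data. The limits are that the lists do not give the usable depth of a library and that each genotype is 2 embryos.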

Other observations

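Slc25a21 runs on for a long way beyond the Pax9 window, from 56712634 to 57197472 on chromosome 12 (mm10, minus strand), and held 5 regions in all, 2 inside the window and 3 beyond it. Of the 3 beyond it, 1 was Shh-specific, against 0.396% of all regions, and nothing is read from so small a count. This intron region, 57138875 to 57139506, lay 443 kb from the Pax9 TSS, with a score of 51 in Shh-/- replicate 1 (71.3% of the list at or above it) and 78 in Shh-/- replicate 2 (52.7%). Its GC content, 36.7%, was as low as that of the nearer region. The other two were called in WT replicate 1, and 1 of them also in Shh-/- replicate 2.

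The Pax9 start-site region, which had WT peaks close beside it, was 1 of 12 promoter regions that were Shh-specific over the genome. The others included promoters of Lpar1, a receptor for lysophosphatidic acid, Slc6a9, a glycine transporter, and Lrba with Mab21l2, and they are given as names only.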
